A study of Mus musculus with 18 samples.

Results

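Cultures of mouse embryonic stem (ES) cells directed toward motor neurons were compared at day 7 and day 4 of differentiation. The comparison used 6 of the 18 expression arrays of the series. All arrays labelled HBG3_Day4 (replicates 1, 2 and 3) and HBG3_Day7 (replicates 3, 4 and 5) were taken, and 18193 genes with a probe set of their own were measured on each. HBG3 is a mouse ES cell line that carries a green fluorescent protein under the control of the motor neuron gene Mnx1 (Hb9). In both groups the cells were dissociated at day 0, aggregated into embryoid bodies, and given retinoic acid (RA) and a Hedgehog (Hh) agonist at day 2. The methods also name a medium exchange at day 5, which only the day 7 cultures reached. Whether RA and the agonist were given again then is not stated. The effects of this exchange and of longer culture cannot be told apart. The labels call day 4 the progenitor stage and day 7 the postmitotic stage. The other 12 arrays cover day 0 ES cells, day 2 embryoid bodies without and with 8 h of RA, and day 3 precursors, and they entered the fit and the course over the stages described at the end.

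In the ventral spinal cord, Hh signals from the floor plate and RA from the adjacent mesoderm set up the domain of motor neuron progenitors, which divide and express Olig2, Nkx6-1 and Pax6. Neurogenin 2 drives these cells out of the cell cycle, after which Isl1, Lhx3 and Mnx1 specify motor neurons, and the neurons grow axons and acquire the cholinergic genes. Later the same domain yields oligodendrocyte precursors, which keep Olig2 and gain Sox10. RNA was taken from embryoid bodies with no sort stated for these arrays, so that fewer cells of a type and less RNA per cell cannot be told apart in any of the values below.

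Values are log2 signals of Affymetrix probe sets after GCRMA, on a scale that ran from 2.24 for the dimmest probe sets to 14.7 for the brightest, and a signal under 4 was taken as background. A gene was called higher or lower at day 7 if any of its probe sets changed by 2-fold or more with limma's adjusted p under 0.01 (Benjamini-Hochberg adjustment over all probe sets). Levels, fold changes and standard errors (SE) are given for the brightest probe set of a gene. If all 3 arrays of a group were under background, its mean was replaced by 4 and the fold change is given as a bound (at least). The standard errors rest on a spread pooled over all 6 stages, which can be too small for genes at the lowest signal in several stages. The labels tie no array to a scan date or a processing batch, so no batch could be examined.

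The 3 arrays of a stage correlated with r of 0.969 to 0.983 at day 4 and 0.981 to 0.995 at day 7, and arrays of different stages with 0.912 to 0.934. Replicate 5 of day 7 stood apart from the other two day 7 arrays: 664 of the 18193 genes were at least 2-fold above and 442 at least 2-fold below both of them there. The corresponding numbers were 41 and 56 for replicate 3 and 35 and 95 for replicate 4. At day 4, replicate 3 had 817 genes above and 295 below, and replicate 1 had 391 above and 376 below. On day 4 replicate 3 the embryonic globin Hbb-y lay at 10.05, against 3.89 and 5.62 on the other day 4 arrays and 2.24 on every day 7 array, and this difference was not called (adjusted p = 0.051). Results that rest on 1 array are given with the value without it.

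Between day 4 and day 7, 1977 genes rose and 1486 fell, which is 10.9% and 8.17% of the genes measured, or 19% in either direction. Among these, 7 genes (Cep83, Epb41l4b, Lrrfip1, Rufy3, Septin6, Tmod3 and Usp15) had probe sets called in both directions. On the brightest probe set alone, 1603 genes rose and 1197 fell. The rises were larger than the falls: 349 genes rose by at least 16-fold against 48 that fell by as much, and 1087 rose by at least 4-fold against 537. Of the 1603 risen genes, 562 were under background on every day 4 array, whereas 118 of the 1197 fallen genes were under background on every day 7 array. The median change over all genes was 0, and 6692 genes were under background on all 6 arrays. A fit to the 6 arrays alone called 780 genes higher and 512 lower.

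**Figure D1:**
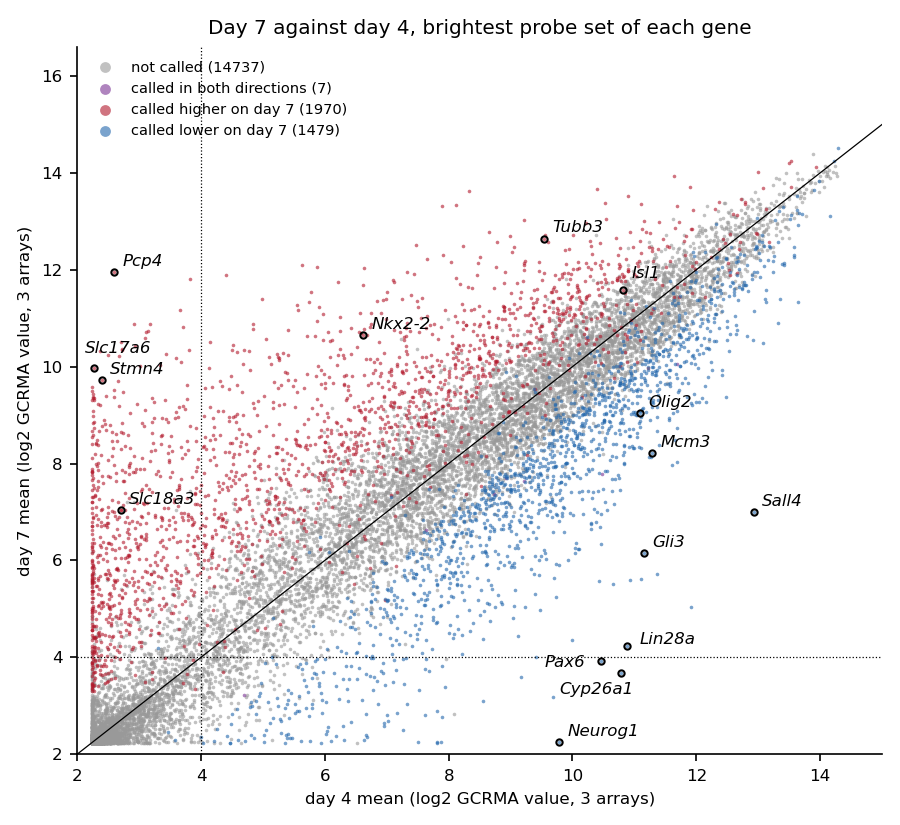
Mean log2 signal of each of 18193 genes at day 4 (horizontal axis, 3 arrays) and day 7 (vertical axis, 3 arrays), on the brightest probe set of the gene, coloured by its call, with dotted lines at the background level of 4. Genes that rose fill the upper left, 562 of them from under the day 4 background line, and genes that fell lie mostly at high day 4 signal.

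Called genes whose groups did not overlap were ordered by the fitted log2 change, which uses signals under background as deposited. Neurog1 (neurogenin 1), a proneural transcription factor, was among the 12 largest falls. Neurog1 measured 9.46, 9.63 and 10.27 on the day 4 arrays and 2.25 on each of the day 7 arrays, at least 55.1-fold lower. Lin28a, an RNA-binding protein of early embryonic cells that blocks the maturation of let-7 microRNAs, fell 101-fold, from 10.63, 11.05 and 10.97 to 3.99, 4.67 and 4.02 (log2 change -6.65, SE 0.21, adjusted p = 1.3e-10). All day 4 signals of both genes were far above all day 7 signals. Protogenin (Prtg), a surface protein of the early neural tube, fell 118-fold, and Sall4, a zinc finger factor of pluripotent and early embryonic cells, fell 61.2-fold, from 12.89 to 12.95 at day 4 to 6.87 to 7.18 at day 7. The other falls among the 12 largest were those of Cyp26a1, Cyp26b1, Pax6 and Neurog2, described below, of Fndc3c1 (at least 51.3-fold), Arg1 (at least 14.6-fold) and ccdc198 (at least 14.1-fold), and of the carbonic anhydrase Car2 (49.9-fold).

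Pcp4, a small calmodulin-binding protein of neurons, was among the 12 largest rises in the same order. Its signal was 2.70, 2.53 and 2.54 at day 4 and 11.90, 11.97 and 11.99 at day 7, at least 249-fold higher (log2 change 9.37, SE 0.28, adjusted p = 6.0e-11). Gamma-synuclein (Sncg), abundant in motor and sensory neurons, rose 252-fold, and the synapse organiser Cbln2 rose at least 118-fold. Further rises of this size were those of Resp18 (at least 107-fold), found in neuroendocrine cells, Nrn1 (neuritin, at least 90.9-fold), Gm3764 (at least 75.7-fold), and Vtn (vitronectin, a matrix protein, 208-fold). Vtn measured 2.31, 2.86 and 4.35 at day 4, and reached 11.53 and 11.99 on day 7 replicates 3 and 4 and 9.10 on replicate 5. Sncg measured 3.10, 5.19 and 3.19 at day 4. For both genes the day 4 mean was under background and 1 array above it. Their fold changes therefore use the deposited signals and are not on the scale of the bounds. The remaining members of the 12 largest rises, Chl1, Slc17a6, Rab3c, Prph and Mapt, are given with their groups.

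The markers of motor neuron progenitors did not change as a group. Of the 17 ventral and progenitor factors listed for this domain, 3 fell (Pax6, Olig2 and Nkx2-9), 2 rose (Nkx2-2 and Shh) and 12 were not called, with a median log2 change of -0.02 (8.17% of all genes fell and 10.9% rose, with a median of 0). In the fit to the 6 arrays alone, none of the 17 was called. Pax6, a homeodomain factor of dividing progenitors, measured 10.25, 10.17 and 10.93 at day 4 and 3.31, 2.55 and 5.90 at day 7, 92.4-fold lower (SE of the log2 change 0.98, adjusted p = 0.00029). Olig2, the factor that defines the domain, measured 11.29, 11.01 and 11.00 at day 4 and 7.69, 9.09 and 10.34 at day 7. The groups did not overlap for either gene, but the day 7 arrays spread widely, with replicate 5 the highest for both. Without replicate 5, Pax6 fell by 7.52 on the log2 scale. The fall of Olig2 by 2.06 on the log2 scale (SE 0.50) passed at an adjusted p of 0.0096. It was no longer called without any 1 of day 4 replicates 1, 2 or 3 (-1.96, -2.10 and -2.11) or day 7 replicates 3 or 4 (-1.38 and -2.08).

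Nkx6-1, which marks progenitors and some motor neurons, measured 9.61, 8.57 and 9.32 at day 4 and 9.37, 8.91 and 7.36 at day 7, and the groups overlapped. The broad neural progenitor factor Sox2 lay between 11.61 and 12.14 at day 4 and between 11.39 and 12.12 at day 7, and nestin (Nes) between 8.27 and 9.31 against 9.57 and 10.49. Neither was called (adjusted p = 1 and 0.28). Nkx2-2 and Shh, which mark domains ventral to the motor neuron progenitors, rose, and Nkx2-9, of the same region, fell 10.6-fold. Nkx2-2 measured 6.55, 7.98 and 5.33 at day 4 and 10.63, 10.68 and 10.65 at day 7, 16.4-fold higher. Shh, the Hh ligand of the floor plate, went from 3.78, 7.26 and 6.88 to 11.30, 11.55 and 10.38, 34.4-fold higher (adjusted p = 8.2e-05), and all day 7 signals lay above all day 4 signals. Foxa1, a floor plate factor that is also listed as a marker of endoderm, rose 7.98-fold, from 4.36, 5.96 and 5.60 to 9.03, 9.19 and 6.68. That call was lost without day 4 replicate 1 (2.52 on the log2 scale) or 3 (3.14), or without day 7 replicate 3 (2.63) or 4 (2.55). Its relative Foxa2 measured 7.63, 7.60 and 5.26 at day 7 against 4.25, 5.26 and 6.13 and was not called.

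Among 24 general neural progenitor genes, 7 fell, 4 rose and 13 were not called, with a median log2 change of -0.28. That is 29.2% and 16.7%, against 8.17% of all genes that fell and 10.9% that rose. Besides Lin28a, the fallen members included the SoxB1 factors Sox1 (4.24-fold) and Sox3 (6.25-fold), the chromatin protein Hmga2 (4.64-fold), Tead2, an effector of Hippo signalling (2.86-fold), and Ccnd1 (cyclin D1), which drives progenitors through G1 (5.56-fold). The risen members are known from radial glia or later glia. Fabp7, the brain lipid-binding protein, went from 8.15, 8.52 and 8.34 to 13.52, 13.58 and 13.78, 39.2-fold higher (adjusted p = 2.6e-07), and the glutamate transporter Slc1a3 and the endothelin receptor Ednrb were called on another probe set. Gpm6b, the fourth, was called at 2.26-fold, a call that was lost without day 4 replicate 3 (0.96) or day 7 replicate 3 (1.17) or 5 (1.10).

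Of 24 transcription factors of postmitotic motor neurons, 10 rose, 1 fell and 13 were not called, with a median log2 change of 0.81. Without day 7 replicate 5, 9 rose, and none fell without day 4 replicate 2 or day 7 replicate 4 or 5. In the fit to the 6 arrays alone, 2 rose and none fell. Isl1 already measured 10.76, 11.20 and 10.48 at day 4, after stage means of at most 4.05 from day 0 to day 3, and measured 11.43, 11.51 and 11.79 at day 7. This change on the brightest probe set was not called (log2 change 0.77, adjusted p = 0.23), and the second Isl1 probe set, dimmer, rose from a mean of 7.56 to 9.28 (adjusted p = 0.00026). Mnx1 measured 3.55, 5.53 and 4.48 at day 4 and 5.67, 6.84 and 7.44 at day 7, a rise of 4.37-fold with an adjusted p of 0.0086. The call on Mnx1 was lost without day 4 replicate 1 (1.64 on the log2 scale) or 3 (2.11) and without day 7 replicate 4 (2.03) or 5 (1.73). Isl2 was under background on every day 4 array (2.37, 2.37 and 2.83) and measured 3.40, 5.70 and 5.57 at day 7, at least 1.85-fold higher (adjusted p = 0.0014). That call was lost with array weights, with signals under background raised to that level, and in the fit to the 6 arrays alone. Lhx3 measured 5.63, 6.62 and 5.94 against 6.63, 8.42 and 8.59 and fell just short of the threshold (log2 change 1.82, adjusted p = 0.011).

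Other risen factors of this list were Esrrg, a nuclear receptor known from gamma motor neurons (17.6-fold), Bcl11b (Ctip2), known from long-projecting neurons (17.3-fold), Pou3f1, known from phrenic motor neurons (5.72-fold), and Ebf3 (3.67-fold). Bcl11b measured 6.66, 7.49 and 4.56 at day 4 and 10.51, 10.35 and 10.20 at day 7, without overlap. Its earlier stage means were 7.58 at day 0, 9.55 at day 2 and 4.36 at day 3. Pou3f1 had stood higher before, with stage means of 10.85 at day 0 and 11.73 at day 2, then 7.72 at day 4 and 10.23 at day 7. Lhx1, Lhx4 and Ebf1 rose on other probe sets than the brightest. Foxp1, a Hox cofactor of limb-innervating motor neurons, was the fallen member. Its brightest probe set measured 11.76, 11.82 and 11.12 at day 4 and 10.37, 10.06 and 10.34 at day 7 and missed the threshold (adjusted p = 0.016), while another of its probe sets passed (adjusted p = 0.0034).

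Of 13 cholinergic and motor neuron effector genes, 7 rose, none fell and 6 were not called, with a median log2 change of 1.10. In the fit to the 6 arrays alone, 3 rose. The vesicular acetylcholine transporter Slc18a3 measured 2.24, 3.51 and 2.36 at day 4 and 6.40, 6.85 and 7.86 at day 7, at least 8.19-fold higher (adjusted p = 8.2e-07). Acetylcholinesterase (Ache) measured 2.26 on every day 4 array and 5.91, 4.97 and 6.84 at day 7, at least 3.75-fold higher. The choline acetyltransferase gene Chat, which defines cholinergic neurons, was under background on all 6 arrays, with 2.43, 2.24 and 2.24 at day 4 and 2.31, 2.88 and 2.24 at day 7. The choline transporter Slc5a7 measured 2.25 to 2.27 at day 4 and 4.02, 2.35 and 3.24 at day 7 and was not called (adjusted p = 0.028). Of the defining markers, Isl1, Mnx1, Lhx3 and Slc18a3 were thus above background on every day 7 array, Isl2 on 2 of the 3, Slc5a7 on 1 and Chat on none.

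Effector genes that motor neurons share with other neurons were among the risen members. Peripherin (Prph), an intermediate filament of neurons with peripheral axons, measured 3.06, 2.58 and 2.51 at day 4 and 10.90, 10.40 and 9.75 at day 7, at least 81.5-fold higher. Chodl (chondrolectin), a marker of fast motor neurons, measured 2.34, 2.27 and 2.39 against 6.89, 7.85 and 8.88, at least 14.7-fold higher. Nrg1 (neuregulin 1), a signal from motor axons to Schwann cells and muscle, measured 2.76, 3.21 and 2.84 against 7.57, 7.79 and 8.09, at least 14.1-fold higher. Each of these genes was under background on every day 4 array and well above it on every day 7 array. Before day 4, Prph had stage means of 5.25 (day 0), 7.10 (day 2), 8.33 (8 h of RA) and 4.88 (day 3). Only 1 of the 4 Prph probe sets was called. Agrin (Agrn), which organises the neuromuscular synapse, rose 2.15-fold, from between 10.23 and 10.87 at day 4, and Aldh1a2, the RA-synthesising enzyme of limb motor columns, rose at least 1.82-fold.

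**Figure D2:**
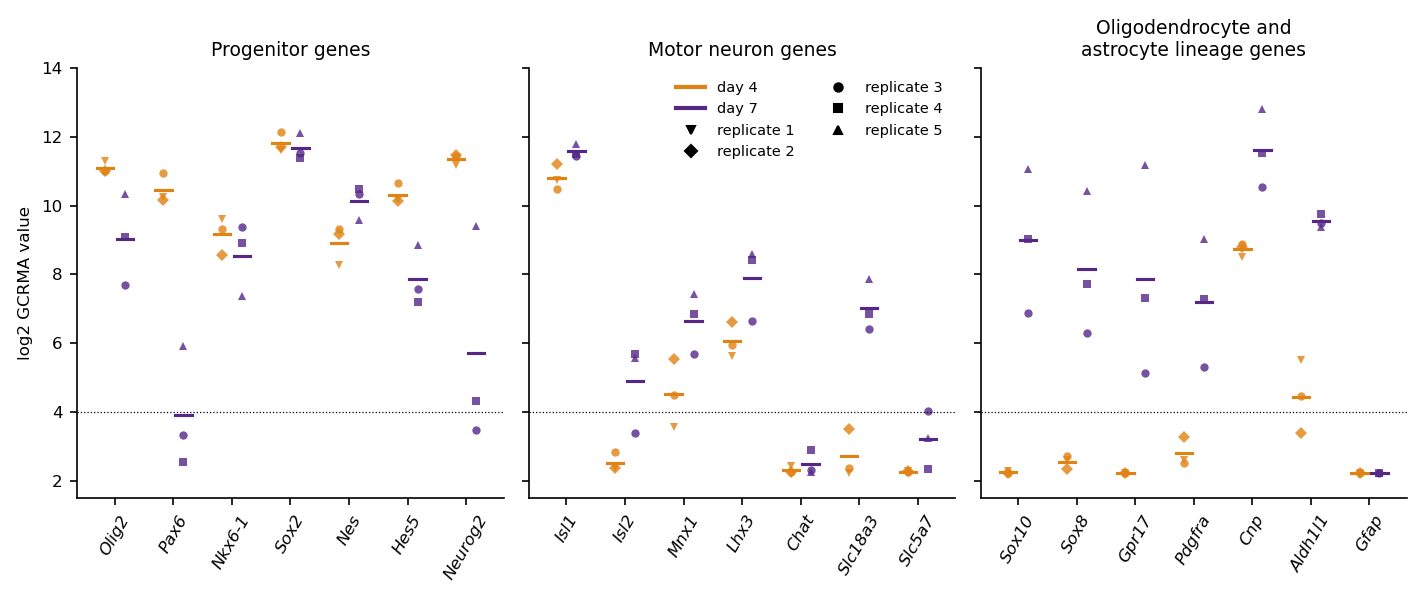
Log2 signal on each of the 6 arrays (points; bars mark the group means) for progenitor genes, motor neuron genes and glial lineage genes. The dotted line is drawn at a background of 4. Pax6 and Neurog2 lie low at day 7 with replicate 5 the highest of the 3 (5.90 and 9.41), Isl1 lies above 10 at both stages, Chat stays under background, and Sox10 and Gpr17 rise from 2.24 at day 4 to their highest signals on replicate 5.

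Proneural and differentiation factors changed in both directions. Among 22 proneural and differentiation factors 7 rose, 4 fell and 11 were not called, and the median log2 change was 0.04. Neurog2 measured 11.17, 11.47 and 11.44 at day 4 and 3.46, 4.30 and 9.41 at day 7, with replicate 5 far above the other day 7 arrays, and its change of -5.64 (SE 1.08) passed at an adjusted p of 0.0020. Without replicate 5 the change was -7.48 and still called, and without day 7 replicate 4 it was -4.93 and not called. Neurod1, a factor downstream of the neurogenins, fell 7.85-fold. Other factors of the list rose from under background: Myt1l, which keeps non-neuronal genes silent, measured 2.24, 2.30 and 2.28 at day 4 and 8.04, 8.90 and 9.62 at day 7, at least 28.9-fold higher. Another neurogenin, Neurog3, rose by at least 14.5-fold, while Neurog1 and Neurog2 fell. Neurod2 and the repressor Scrt1 rose by at least 3.99-fold and 3.65-fold. Rest, the repressor that silences neuronal genes in other cells, measured 11.41, 11.48 and 11.30 at day 4 and 9.79, 9.91 and 10.27 at day 7, 2.65-fold lower (adjusted p = 3.1e-05).

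In the Notch pathway, which holds neighbouring progenitors back from differentiation, 3 of 23 genes rose, 3 fell and 17 were not called. The Notch target Hes5 measured 10.17, 10.14 and 10.64 at day 4 and 7.58, 7.20 and 8.85 at day 7, 5.42-fold lower without overlap. Numb, which opposes Notch, fell 2.54-fold. The target Hey1 rose 4.00-fold, from between 9.79 and 10.63 to between 12.09 and 12.44, and the Notch ligand Dner of neurons rose 8.31-fold. The receptor Notch1 lay between 11.05 and 11.43 at day 4 and between 10.98 and 11.33 at day 7 and was not called.

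Most called genes of the Hh pathway, which the agonist added at day 2 activates, fell. Of 12 measured, 7 fell, 1 rose and 4 were not called, with a median log2 change of -1.18. Without day 7 replicate 5, 6 fell, and in the fit to the 6 arrays alone 3 fell and none rose. All 3 Gli transcription factors, through which the pathway acts, fell. Gli1, a direct target, measured 7.56, 7.02 and 7.95 at day 4 and 2.24 on each day 7 array, at least 11.4-fold lower. Gli2 measured 6.87, 7.70 and 9.10 against 2.31, 2.25 and 3.72, at least 14.8-fold lower. Gli3 measured 11.04, 11.09 and 11.33 against 6.11, 6.01 and 6.32, 32.2-fold lower (adjusted p = 1.6e-10). For each Gli gene the day 7 arrays lay far below all day 4 arrays.

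The ligand-binding Hh inhibitor Hhip, also a target, fell 9.79-fold, the coreceptor Gas1 5.48-fold and the Gli-binding inhibitor Sufu 2.03-fold. Ptch1, the receptor for Shh and a target gene, was called lower on a dim probe set. Its brightest probe set measured 13.73, 13.80 and 13.23 at day 4 and 12.36, 12.44 and 12.58 at day 7 (adjusted p = 0.039). Stk36, a kinase tied to cilia, rose 4.35-fold, while the transducer Smo, Boc, Disp1 and Kif7 were not called. The ligand Shh rose in the same arrays, as given above.

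In the retinoid pathway 5 of 17 genes fell, none rose and 12 were not called, with a median log2 change of -0.40, and 4 fell without day 7 replicate 5. The RA-synthesising enzyme Aldh1a2, counted with the motor neuron effectors, rose as given above. In the fit to the 6 arrays alone, 3 of the 17 fell and 1 rose. The fallen genes are known RA-responsive genes or RA-handling enzymes. Cyp26a1, which degrades RA, measured 10.97, 10.66 and 10.75 at day 4 and 3.88, 3.69 and 3.44 at day 7, at least 111-fold lower (adjusted p = 1.0e-06). Cyp26b1, of the same family, measured 9.45, 9.87 and 8.19 against 4.38, 3.11 and 3.32, 47.5-fold lower. Crabp2, which carries RA to the nucleus, fell 4.91-fold from between 13.55 and 13.74. The receptor Rarb measured 9.05, 9.56 and 9.16 at day 4 and 7.20, 7.10 and 6.82 at day 7, 4.63-fold lower (adjusted p = 0.00063). The retinal reductase Dhrs3 fell 9.82-fold, a call that was lost without day 4 replicate 3 (-2.98 on the log2 scale) or day 7 replicate 4 (-3.10) or 5 (-2.98).

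The promoters of Cyp26a1 and Rarb hold the element that RA receptors bind, a direct repeat of the receptor half-site with 5 bases between the copies (DR5). In RefSeq promoter windows (GRCm38.p6, the 250 bases before each start, both strands), 2 of the 14 retinoid genes with a window held it, against 11 of 14452 measured genes (0.0761%). The paper names both as genes with RA response elements characterized before. Their count thus follows from the choice of the list and is a description. The stretches below come from chr19:37697770-37697798 on the plus strand and chr14:16575507-16575535 on the minus strand, and the capitals mark the element. Each lies just before the start used for its window and overlaps the annotated span of its gene.
Cyp26a1: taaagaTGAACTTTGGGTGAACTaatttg
Rarb: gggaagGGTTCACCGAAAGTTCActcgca
The match in Cyp26a1 runs on the opposite strand.

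Few Hox genes, which record the level along the body axis, were called. Of 15 genes of paralog groups 1 to 6, 1 fell (Hoxb4), 1 rose on a dimmer probe set (Hoxc5) and 13 were not called, with a median log2 change of -0.73. That is 6.67% each way, against 10.9% of all genes that rose and 8.17% that fell. Hoxb4 had a mean of 11.86 ± 0.12 (SD, n = 3) at day 4 and measured 10.45, 10.26 and 10.25 at day 7, 2.91-fold lower and without overlap. That call was lost without any of the 3 day 4 arrays or without day 7 replicate 4 or 5, with log2 changes of -1.47 to -1.58. Hoxb5 lay between 12.58 and 12.70 at day 4 and between 12.33 and 12.85 at day 7, and Hoxc4 between 11.87 and 12.68 against 12.25 and 12.36, so that both overlapped. None of the 18 genes of paralog groups 7 to 13 was called, and 14 of them were under background on all 6 arrays.

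Nearly all measured genes of DNA replication and mitosis fell. Of 48 DNA replication genes, 46 fell and none rose, with a median log2 change of -2.02, against the 8.17% of all genes that fell. Of 59 mitosis genes, 57 fell and none rose, with a median of -2.33. All 48 replication genes and 57 mitosis genes had every day 7 signal below every day 4 signal, where 17% of all genes did. The 4 genes not called were the clamp loader subunit Rfc2 and the maintenance methyltransferase Dnmt1 in replication (log2 changes of -0.55 and -0.72), and the checkpoint protein Bub3 and the kinesin Kif15 in mitosis (-0.36 and -1.02). Without day 7 replicate 5, 44 replication genes and 56 mitosis genes fell, and in the fit to the 6 arrays alone 25 and 38 did.

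Among the replication genes, the origin licensing factor Cdc6 measured 9.85, 9.75 and 10.50 at day 4 and 5.94, 5.75 and 6.75 at day 7, 14.8-fold lower (adjusted p = 5.5e-07). Pole2, a subunit of the leading-strand polymerase, fell 14.7-fold, Mcm10, which helps to start the fork, by 3.81 on the log2 scale, and the origin recognition subunit Orc1 at least 4.55-fold. All subunits of the Mcm2 to Mcm7 helicase fell, by between 3.26-fold (Mcm2) and 8.44-fold (Mcm3). The replication clamp Pcna fell 2.49-fold and still lay between 11.95 and 12.20 at day 7.

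Among the mitosis genes, the kinesin Kif11, which drives the spindle poles apart, measured 10.13, 10.36 and 10.26 at day 4 and 7.37, 7.40 and 7.49 at day 7, 7.11-fold lower. Ki-67 (Mki67), the antigen used to count dividing cells, measured 11.46, 11.14 and 10.68 against 8.63, 9.52 and 8.13, 5.04-fold lower (adjusted p = 0.00017). Neither gene was near background at day 7, and both groups were clearly separated. Anillin (Anln), of the cleavage furrow, fell 13.5-fold, the chromosomal passenger kinase Aurkb 11.7-fold, Kif20b 10.7-fold and the mitotic gene activator Mybl2 at least 12.9-fold. The mitotic kinase Cdk1 fell 2.71-fold and the separase inhibitor Pttg1 2.17-fold, toward the small end of the list.

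Promoters of many mitotic genes carry a cell cycle homology region (CHR, TTTGAA), through which they are held silent in resting cells, and CCAAT boxes, which bind the activator NF-Y, and many replication genes carry an E2F site. A promoter window was found for 51 of the mitosis genes and 39 of the replication genes, and both strands were searched. The CHR lay in 18 of the 51 mitosis windows (35.3%), against 14.1% of the 14452 windows of all measured genes, and CCAAT in 36 (70.6%), against 39.4%. The CHR also lay in 9 of the 36 windows of synaptic genes (25%), in 3 of the 14 of retinoid genes (21.4%) and in 7 replication windows (17.9%). Both lay in 16 of the mitosis windows (31.4%), in 5 of the replication windows (12.8%) and in 5.09% of all windows. The E2F-type letters GCGGGAA lay in 9 replication windows (23.1%), in 2 mitosis windows (3.92%) and in 6.57% of all windows. CCAAT lay in 26 replication windows (66.7%). These are matches of letters and say nothing of binding in these cells.

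Several fallen mitosis genes hold both elements within 70 bases of the promoter, Smc2 and Cdk1 among them. Stretches from 4 others are shown. They are Kif11 (chr19:37376312-37376381, plus strand), Top2a (chr11:99024202-99024271, minus strand), Mki67 (chr7:135716461-135716530, minus strand) and Cdc20 (chr4:118437344-118437413, minus strand). All are written along the gene. Capitals mark the CHR (TTTGAA, or TTCAAA where it lies on the opposite strand) and the CCAAT box (CCAAT or ATTGG).
Kif11: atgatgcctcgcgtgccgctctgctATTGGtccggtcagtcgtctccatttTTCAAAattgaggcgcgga
Top2a: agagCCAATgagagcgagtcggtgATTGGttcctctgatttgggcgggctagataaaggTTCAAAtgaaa
Mki67: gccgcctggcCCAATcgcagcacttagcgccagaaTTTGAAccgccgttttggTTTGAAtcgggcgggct
Cdc20: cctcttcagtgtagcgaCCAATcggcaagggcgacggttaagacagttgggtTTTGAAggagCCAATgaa
Top2a, the DNA topoisomerase of mitotic chromosomes, fell 5.78-fold, and Cdc20, an activator of the anaphase-promoting complex, fell 3.38-fold. From the replication genes, Gins3 (chr8:95633497-95633546, plus strand), a helicase component that fell 9.77-fold, and Uhrf1 (chr17:56303268-56303317, plus strand), a partner of Dnmt1 that fell 5.15-fold, show the E2F-type letters in capitals, on the opposite strand in Uhrf1.
Gins3: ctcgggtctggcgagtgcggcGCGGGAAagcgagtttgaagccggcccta
Uhrf1: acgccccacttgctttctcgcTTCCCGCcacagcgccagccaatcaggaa

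The regulators of the G1 phase divided more. Of 31 cyclins, cyclin-dependent kinases, E2F factors and inhibitors, 10 fell, 3 rose and 18 were not called. E2F factors that act around S phase fell: E2f7 measured 9.12, 9.32 and 9.74 at day 4 and 5.14, 4.74 and 6.04 at day 7, a log2 change of -4.08, E2f1 fell 11.5-fold and E2f8 9.91-fold. The cyclins Ccne1 and Ccne2 and the kinase Cdk2, which start S phase, fell 3.38-fold, 4.28-fold and 4.35-fold. Cdk5 and its activator Cdk5r1 (p35), which act in neurons outside the cell cycle, rose 3.30-fold and 21.2-fold, Cdk5r1 from 6.73, 7.00 and 7.21 to 11.08, 11.23 and 11.86. The third risen gene, Rbl2, stayed dim (4.41, 4.12 and 4.30 at day 7), and its call was lost without any 1 of the 6 arrays, at log2 changes of 1.65 to 1.82. The inhibitors Cdkn1a, Cdkn1b and Cdkn1c were not called. Cdkn1c measured 7.19, 7.13 and 8.78 at day 4 and 10.51, 9.48 and 9.98 at day 7 without overlap (log2 change 2.29, SE 0.82, adjusted p = 0.072).

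Genes that build ribosomes fell in part. Of 26, 15 fell, none rose and 11 were not called, with a median log2 change of -1.11. The nucleolar protein Gnl3 (nucleostemin) lay between 11.77 and 11.86 at day 4 and between 9.76 and 10.33 at day 7, 3.27-fold lower. Mycn, the Myc factor of neural progenitors, measured 11.83, 11.90 and 12.03 against 10.06, 9.69 and 10.48, 3.60-fold lower. Rcl1, which acts in ribosomal RNA processing, fell 4.79-fold and Gar1, of the pseudouridine synthase complex, 3.32-fold. The groups did not overlap for any of these. Without day 7 replicate 5, 10 members of the list fell, and in the fit to the 6 arrays alone 4 did.

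**Figure D3:**
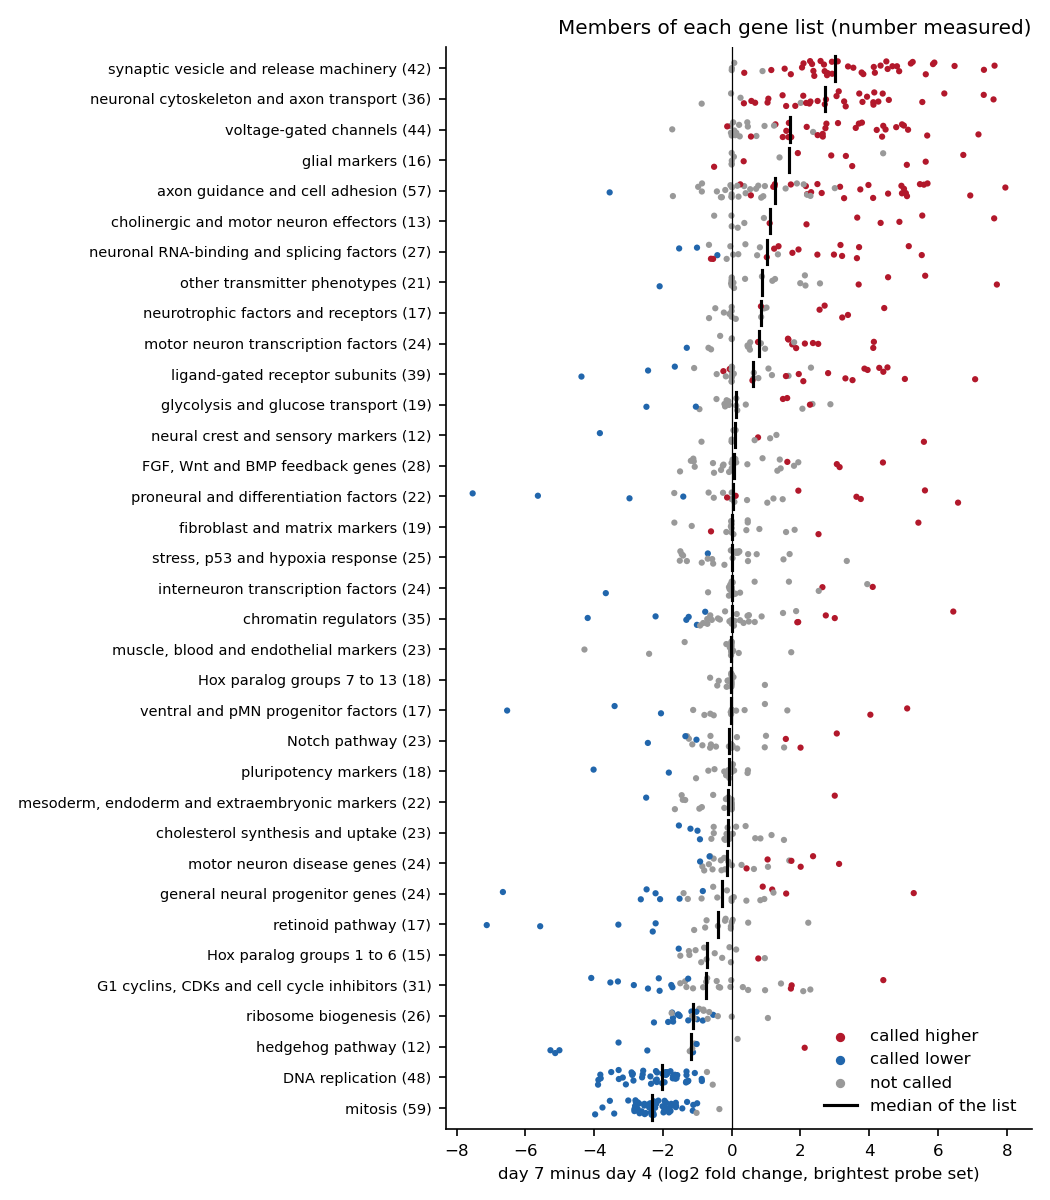
Log2 change from day 4 to day 7 of every measured member of the 35 gene lists (points, coloured by call) with the list medians (bars). The mitosis and DNA replication lists lie almost wholly below 0 (medians -2.33 and -2.02), and the synaptic and cytoskeleton lists almost wholly above it (medians 3.00 and 2.72).

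Of 36 genes of the neuronal cytoskeleton and axonal transport, 32 rose and none fell, with a median log2 change of 2.72, against the 10.9% of all genes that rose. In the fit to the 6 arrays alone, 23 rose. Tau (Mapt), which binds axonal microtubules, measured 3.84, 2.78 and 2.71 at day 4 and 10.85, 10.56 and 10.76 at day 7, at least 106-fold higher (adjusted p = 9.6e-10). The microtubule destabiliser Stmn4 rose at least 52.8-fold, and Tubb4a, a neuronal beta-tubulin, 46.6-fold. The early neuronal tubulin Tubb3 measured 9.38, 9.57 and 9.64 against 12.81, 12.99 and 12.14, 8.65-fold higher (adjusted p = 0.0016). Dcx (doublecortin) of migrating neurons, the dendritic Map2 and the neurofilament Nefl rose 13.1-fold, 19.2-fold and 9.64-fold. Nefl, Dcx and Tubb3 were thus already well above background at day 4, and Mapt and Stmn4 were not. The kinesin Kif5a of axonal transport rose 23.7-fold and the dynein subunit Dync1i1, of neurons, at least 6.17-fold. The 4 not called were Tubb2b, Dpysl2, Kif21a and Map1a, with log2 changes of 0.26, -0.02, -0.87 and 2.01.

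Of 42 genes of synaptic vesicles and their release, 38 rose and none fell, with a median log2 change of 3.00. Rab3c, a vesicle GTPase, measured 2.24, 3.68 and 2.24 at day 4 and 10.40, 10.05 and 10.63 at day 7, at least 82.2-fold higher. The calcium sensor Syt1 measured 3.12, 3.86 and 3.25 against 9.40, 9.10 and 9.41, at least 39.5-fold higher (adjusted p = 5.5e-11). Synapsin 1 (Syn1), which tethers vesicles, measured 4.02, 4.11 and 4.89 against 9.31, 9.67 and 9.83, 38.4-fold higher. The secretory granule proteins Scg2 and Chgb rose at least 47.5-fold and 89.3-fold, Scg2 from 2.24 on every day 4 array to 9.74, 9.44 and 9.53. Snap25, of the fusion complex, was already between 8.48 and 8.96 at day 4 and rose 13.7-fold. Not called were Sypl2 and Sv2c, under background on all 6 arrays, and Rims2 and Unc13a, with log2 changes of 0.07 and 0.90. Without day 7 replicate 5, 34 members rose, and in the fit to the 6 arrays alone 22 did.

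Rest binds an element whose left part reads TTCAGCACC, and Syn1 is a known target. These letters lay in 1 of the 36 synaptic promoter windows, that of Syn1 (2.78%), and in 0.381% of all windows. They are shown in capitals in the stretch at chrX:20921119-20921168, minus strand.
Syn1: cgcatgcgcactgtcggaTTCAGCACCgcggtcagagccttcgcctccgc
The fall of Rest and the rise of Syn1 stand in the same arrays, and no binding was measured here.

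Of 44 voltage-gated channel genes 28 rose, none fell and 16 were not called, 10 of the list being under background on all 6 arrays. With all signals under background raised to that level before the fit, 20 rose and 1 fell and the median log2 change went from 1.70 to 1.09. The sodium channel subunits Scn3b and Scn9a rose at least 43.1-fold and 15.9-fold. Scn3b measured 2.26, 2.26 and 2.24 at day 4 and 9.47, 9.19 and 9.62 at day 7. The N-type calcium channel Cacna1b, which triggers release at nerve terminals, rose at least 13.8-fold, the potassium channel subunit Kcnip1 at least 12.5-fold and Kcnd3, of the A-type potassium current, 27.5-fold.

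Of 39 ligand-gated receptor subunits, 16 rose (41.0%), 3 fell (7.69%) and 20 were not called, against 10.9% and 8.17% of all genes. The embryonic glycine receptor subunit Glra2 measured 2.24 on every day 4 array and 9.28, 8.83 and 9.83 at day 7, at least 39.8-fold higher. The glutamate receptor subunits Gria1, Gria3, Gria4 and Grik3 rose, Gria4 by 19.6-fold and Grik3 by at least 14.3-fold. All 3 fallen genes encode nicotinic acetylcholine receptor subunits. Chrnb4 measured 6.59, 6.97 and 7.28 at day 4 and 2.55, 2.24 and 2.95 at day 7, at least 7.72-fold lower, and Chrna3, its partner in ganglionic receptors, fell 5.40-fold. Chrna7 fell 3.15-fold, a call lost without day 4 replicate 3 (-1.48 on the log2 scale) or day 7 replicate 4 (-1.37). Chrnb2, the neuronal beta subunit, rose in the same arrays, from 3.03, 3.56 and 3.16 to 8.52, 8.37 and 7.98, at least 19.5-fold higher.

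Among 57 axon guidance and cell adhesion genes, 27 rose, 1 fell and 29 were not called, with a median log2 change of 1.26. The adhesion molecule Chl1 measured 2.27, 2.56 and 2.27 at day 4 and 10.05, 10.24 and 10.69 at day 7, at least 80.0-fold higher. L1cam, of the same family, rose 30.6-fold, Cntn1 at least 42.2-fold, the netrin receptor Dcc 33.5-fold and the repulsive ligand Sema3a at least 30.6-fold. The Eph receptors Epha3, Epha5 and Ephb1, which take part in axon guidance, rose 13.4-fold, 32.2-fold and 34.2-fold. Unc5a, a receptor for netrin repulsion, was the fallen gene and measured 9.82, 8.67 and 10.22 at day 4 and 6.19, 5.46 and 6.42 at day 7, 11.7-fold lower, whereas its relatives Unc5c and Unc5d rose at least 9.23-fold and 2.44-fold. Of 17 neurotrophic factors and receptors, 6 rose and none fell. Ntrk2, the receptor for brain-derived neurotrophic factor, measured 4.21, 5.33 and 4.02 against 8.24, 9.06 and 9.56, 21.6-fold higher, and the neurotrophin receptor Ngfr, expressed by embryonic motor neurons, rose 9.28-fold. Gfra1, the receptor for glial-derived neurotrophic factor, rose 6.51-fold.

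Genes of other transmitters were examined because embryoid bodies can hold other neurons. Of 21, 4 rose (19.0%), 1 fell (4.76%) and 16 were not called, against 10.9% and 8.17% of all genes. Without day 7 replicate 5 the number that rose was 6. The vesicular glutamate transporter Slc17a6 measured 2.30, 2.25 and 2.25 at day 4 and 10.23, 9.55 and 10.14 at day 7, at least 62.9-fold higher (adjusted p = 2.0e-13). Its earlier stage means were under background too, so the pooled spread behind this p may be too small. The neuropeptide genes Sst (somatostatin) and Tac1 rose 23.4-fold and at least 15.4-fold, and Tac1 measured 9.27, 8.14 and 6.43 at day 7. Galanin (Gal) measured 8.04, 7.32 and 3.12 at day 7 against 2.46 on every day 4 array. Its call was lost without any 1 array except day 7 replicate 5, with log2 changes of 2.75 to 3.69, and without replicate 5 the change was 5.21.

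Several genes of other neurons separated the day 7 arrays and were not called. Replicates 3 and 4 were high and replicate 5 was low for Sim1, of V3 interneurons (8.47, 7.47 and 2.58), Th, of catecholamine synthesis (6.35, 6.99 and 2.24), and the serotonin transporter Slc6a4 (6.92, 5.25 and 2.24). Replicate 5 was high for the enzymes of GABA synthesis Gad1 (3.14, 3.37 and 6.91) and Gad2 (3.01, 3.94 and 6.33) and for Lbx1, of dorsal interneurons (2.24, 2.62 and 7.33). Their adjusted p ran from 0.015 for Sim1 to 1 for Lbx1. The GABA and glycine vesicular transporter Slc32a1 stayed at 2.69 to 2.72 on all 6 arrays.

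Of 24 interneuron transcription factors, 2 rose (8.33%), 1 fell (4.17%) and 15 were under background on all 6 arrays, En1 and Evx1 among them. The shares of all genes were 10.9% and 8.17%. Of the list, 4 rose without day 7 replicate 5. The risen factors Gata2 and Gata3 mark V2b interneurons and some other neurons. Gata3 measured 2.24, 2.33 and 2.56 at day 4 and 6.89, 6.87 and 5.66 at day 7, at least 5.55-fold higher, and Gata2 rose 6.23-fold. Prdm8 was the fallen factor, from 11.84, 12.13 and 11.09 to 7.40, 8.08 and 8.60, 12.6-fold lower.

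Many regulators of splicing and RNA stability known from neurons rose. Of 27 such genes, 15 rose, 3 fell and 9 were not called, with a median log2 change of 1.02. Only 1 fell without day 7 replicate 3. Celf5, Rbfox1 and Celf4, all splicing factors of neurons, rose by 5.53, 5.15 and 3.70 on the log2 scale. Rbfox3, the NeuN antigen of mature neurons, measured 6.71, 6.49 and 5.81 at day 4 and 9.05, 9.09 and 9.79 at day 7, 7.85-fold higher. Ptbp1, which suppresses neuronal splicing in progenitors, fell 2.88-fold at an adjusted p of 0.0092, and that call was lost without any of the 3 day 4 arrays or day 7 replicate 3 or 5 (log2 changes of -1.16 to -1.72). Its neuronal relative Ptbp2 lay between 12.48 and 12.61 at day 4 and between 11.72 and 12.27 at day 7 on the brightest probe set (adjusted p = 0.054), and rose from a mean of 3.80 to 5.66 on the other (adjusted p = 0.00020).

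Of 35 chromatin regulators, 5 rose (14.3%), 6 fell (17.1%) and 24 were not called, against 10.9% and 8.17% of all genes called higher and lower. The de novo DNA methyltransferase Dnmt3b measured 8.76, 9.38 and 9.57 at day 4 and 4.88, 5.11 and 5.15 at day 7, 18.2-fold lower. The Polycomb genes Cbx2, Suz12, Eed and Ezh2 fell 4.64-fold, 2.50-fold, 2.38-fold and 2.02-fold. For Ezh2 the call was lost without day 4 replicate 3 (-0.88 on the log2 scale) or day 7 replicate 5 (-0.94). For Eed it was lost without any array but day 7 replicate 4 (-1.01 to -1.28). The risen genes belong to the neuronal form of the BAF chromatin remodelling complex or to its ATPase: Actl6b (BAF53b), Smarcd3, Ss18l1 (CREST), Smarcc2 and Smarca2. Actl6b measured 2.24 on every day 4 array and 8.80, 8.52 and 8.71 at day 7, at least 25.6-fold higher (adjusted p = 2.9e-17). Its mean was 2.24 at each earlier stage too, so the pooled spread behind this p may be too small. The call on Smarcc2 was lost without any 1 array except day 4 replicate 2, with log2 changes of 1.73 to 2.10. Dpf3, another neuron-enriched BAF subunit, stayed at 2.24 on all 6 arrays and did not rise.

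Because many proteins have a broadly used and a neuron-enriched form, the difference between both genes of a pair within each array was followed for 16 pairs. This tests whether the members changed unequally and does not compare their levels, which are read from different probes. The difference moved toward the neuronal gene in 9 pairs, moved the other way in none, and did not pass in 7 (limma on the within-array differences, adjusted p under 0.01 over the 16 pairs). Actl6a (BAF53a) to Actl6b shifted by 7.21 on the log2 scale (SE 0.34), or 148-fold, and 43.7-fold with signals under background raised to that level. Kif5b to Kif5a shifted 52.2-fold, also with signals raised in this way, and Snap23 to Snap25 21.7-fold. The pairs Tubb5 and Tubb3, Smarcd1 and Smarcd3, Ss18 and Ss18l1, Smarcc1 and Smarcc2, and Elavl1 and Elavl4 shifted between 4.08-fold and 6.80-fold. In the pair of non-muscle myosins the shift of 4.78-fold came with a fall of Myh9 (from between 12.36 and 12.49 to between 9.39 and 10.37) and with Myh10 not called. The 7 that did not pass were those of Dnm1, Ezh1, Ldhb, Aldoc, Ptbp2, Slc2a3 and Dpf3, with adjusted p from 0.018 to 0.19. Dpf3 was under background at both stages.

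**Figure D4:**
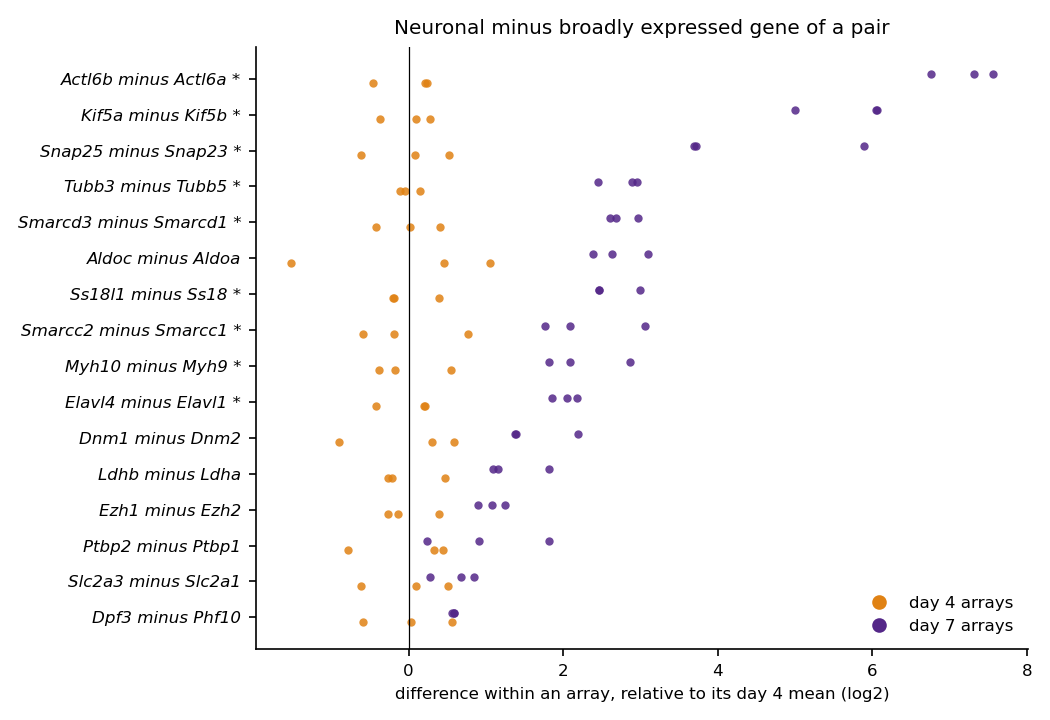
Difference in log2 signal between the neuron-enriched and the broadly used gene of 16 pairs on each array, set relative to the day 4 mean of the pair (points for the 3 arrays of each stage). Asterisks mark the 9 pairs that passed. All day 7 points of Actl6a and Actl6b lie far above day 4, and no pair that passed shifted down.

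Glial lineage genes rose along with the neuronal genes. Of 16 glial markers 9 rose, none fell and 7 were not called, with a median log2 change of 1.66. With signals under background raised to that level, 7 rose with a median of 0.79, 8 rose without day 7 replicate 5, and 2 rose in the fit to the 6 arrays alone. On day 4 replicate 1, 5 of the 16 lay at least 2-fold above both other day 4 arrays. On day 7 replicate 5, 5 lay as far above both other day 7 arrays. Without day 4 replicate 1, 8 rose with a median of 1.96. Sox10, which defines oligodendrocyte precursors and crest-derived glia, measured 2.29, 2.24 and 2.24 at day 4 and 6.88, 9.04 and 11.05 at day 7, at least 31.8-fold higher (adjusted p = 1.6e-05). Gpr17, of committed oligodendrocyte precursors, measured 2.24 on every day 4 array and 5.14, 7.30 and 11.19 at day 7, at least 14.7-fold higher. Without replicate 5 the log2 change of Gpr17 was 3.99 in place of 5.64 and still called, and the call was lost with array weights, with signals raised to background, and in the fit to the 6 arrays alone. Sox8, listed with the neural crest and also found in that lineage, measured 6.30, 7.71 and 10.43 at day 7, at least 17.7-fold higher than at day 4. The changes of Sox10 and Sox8 without replicate 5 were 5.70 and 4.45. All 3 genes were above background on every day 7 array and were highest on replicate 5.

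The receptor Pdgfra of oligodendrocyte precursors had the same order of arrays (5.31, 7.28 and 9.02 at day 7 against 2.53 to 3.28) and was not called (adjusted p = 0.014). Olig1, known from both motor neuron progenitors and oligodendrocyte precursors, measured 7.52, 9.52 and 12.11 at day 7 around 9.15 to 9.54 at day 4. The myelin gene Mbp was not called on its brightest probe set (log2 change 0.35) but rose on 5 of its 8 probe sets, on 1 of them from a mean of 2.83 to 9.56. The enzyme Aldh1l1, a marker of astrocytes and radial glia, rose 34.1-fold, from 5.50, 3.39 and 4.45 to 9.49, 9.77 and 9.37, and Nfib, a factor of gliogenesis, rose 11.3-fold. Gfap, the defining marker of mature astrocytes, and the myelin gene Mag stayed at 2.24 on all 6 arrays. The part of glial cells in the other rises and falls of this comparison was not tested.

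Markers of other cell types were mostly at background. Of 18 pluripotency markers none rose, 2 fell (11.1%, against 8.17% of all genes) and 11 were under background on all 6 arrays. Pou5f1 lay between 2.24 and 2.50 throughout, and Nr0b1 fell at least 4.98-fold from between 5.45 and 6.95. Dppa5a was called lower by 3.55-fold, a call lost without any 1 array except day 4 replicate 2, with log2 changes that included -1.34 without day 4 replicate 3. None of 23 muscle, blood and endothelial markers was called, and 19 of them were under background on all 6 arrays. Of 22 markers of mesoderm, endoderm and extraembryonic cells, 14 were under background throughout, Foxa1 rose as given above, and the epithelial adhesion molecule Epcam fell at least 2.85-fold. Of 19 fibroblast and matrix markers 3 rose (15.8%, against 10.9% of all genes): Igfbp5 43.1-fold, Sparc 5.75-fold, and Dcn on a probe set other than its brightest. Igfbp5 measured 7.30, 7.81 and 8.58 at day 4 and 13.18, 13.27 and 13.52 at day 7, while the fibroblast collagen Col3a1 stayed under background on all 6 arrays. Among 12 crest and sensory markers Sox8 and Isl1 (on its dimmer probe set) rose and Foxd1 fell at least 4.28-fold. These are 16.7% and 8.33% of the list, against 10.9% and 8.17% of all genes.

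Of 28 FGF, Wnt and BMP feedback genes 4 rose (14.3%, against 10.9% of all genes) and none fell. Without day 4 replicate 1, 2 rose and 1 fell. Id4, an inhibitor of helix-loop-helix factors that BMP signals induce, rose 21.1-fold, from between 7.21 and 8.38 to between 12.22 and 12.46, and the FGF-responsive factor Etv5 rose 8.33-fold. Bmp7 rose 8.80-fold and Spry2 3.07-fold. Etv5 and Spry2 had stood higher at day 0, with means of 11.98 and 12.81 against 6.89 and 10.44 at day 7. The call on Bmp7 was lost without day 4 replicate 1 (2.60 on the log2 scale) or 2 (3.15) or day 7 replicate 5 (2.52), and that on Spry2 without day 4 replicate 1 (1.56) or 3 (1.58). Of 19 genes of glycolysis and glucose transport 3 rose (15.8%) and 2 fell (10.5%), against 10.9% and 8.17% of all genes. Hk1, the hexokinase of brain, rose 4.84-fold, Pfkm 3.06-fold and Ldhb 2.81-fold. Ldhb had means of 12.81 at day 0 and 12.63 at day 2, against 11.10 at day 4 and 12.59 at day 7. The lactate and pyruvate transporter Slc16a1 fell 5.58-fold, and Slc2a1 (Glut1) 2.06-fold, the latter call being lost without day 4 replicate 2 (-0.99) or day 7 replicate 4 (-0.94). Of 23 cholesterol genes 4 fell (17.4%, against 8.17% of all genes) and none rose. The number that fell was 1 without day 4 replicate 2 or day 7 replicate 5. It was 2 without day 4 replicate 1 or day 7 replicate 3 or 4. Of 25 stress, p53 and hypoxia genes 1 fell (Ccng1, on another probe set), or 4% against 8.17% of all genes, and none rose.

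Of 24 genes with known mutations in motor neuron disease, 6 rose, 2 fell and 16 were not called, with a median log2 change of -0.15. That is 25% and 8.33%, against 10.9% of all genes that rose and 8.17% that fell. The risen ones include 4 genes of hereditary spastic paraplegia or motor neuropathy that shape the endoplasmic reticulum or its contacts. Atl1 (atlastin) measured 4.16, 6.36 and 6.14 at day 4 and 8.75, 8.35 and 8.93 at day 7, 8.71-fold higher, and Bscl2 (seipin), Reep1 and Spast (spastin) rose 5.15-fold, 4.02-fold and 2.06-fold. The autophagy receptor Sqstm1 rose 3.33-fold. Bscl2 and Sqstm1 had day 0 means of 10.29 and 9.78, above their day 4 means of 9.17 and 8.31. Sod1 was not called, between 13.99 and 14.28 at day 4 and between 13.84 and 14.06 at day 7. The RNA-binding proteins Tardbp and Hnrnpa1 fell on probe sets other than their brightest.

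Set against the earlier stages, most changes placed day 7 outside the range of the whole series. Of the 1603 genes that rose on the brightest probe set, 1344 (83.8%) had every day 7 signal above all 15 other arrays. For 376 of the 1603 (23.5%) those 15 arrays were all under background, against 33.2% of all genes. Of the 1197 that fell, 967 (80.8%) had every day 7 signal below all 15 other arrays. Over all genes the shares were 12.4% above and 10.3% below, and the calls used the same day 7 arrays, so the shares are a description. Every day 4 signal lay above all 15 other arrays for 69 of the fallen genes (5.76%, against 0.846% of all genes) and below them for 90 of the risen ones (5.61%, against 0.879%). Neurog1 was among the genes with a peak, with stage means of at most 2.63 through day 2, 5.91 at day 3 and 9.78 at day 4.

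**Figure D5:**
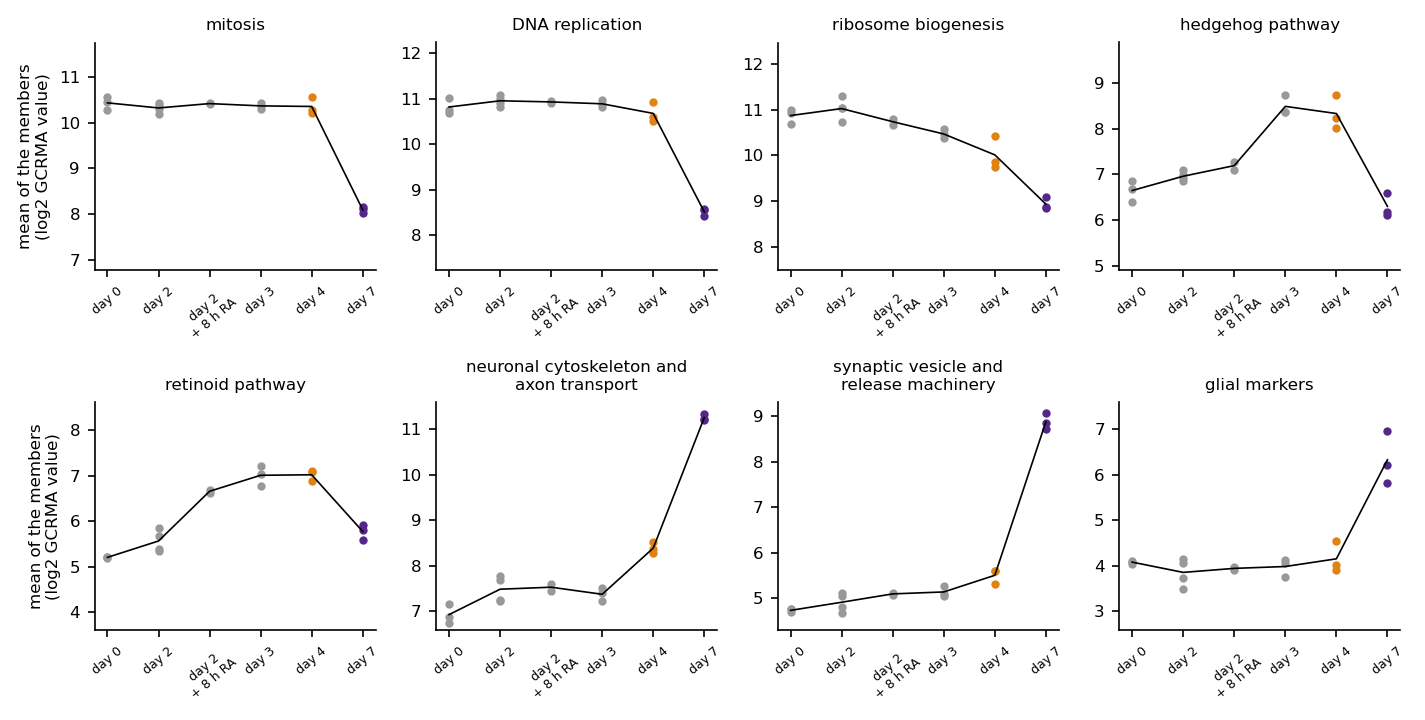
Mean log2 signal over the measured members of 8 gene lists on each of the 18 arrays, ordered by stage from day 0 to day 7. The mitosis and DNA replication lists hold a high level through day 4 and drop at day 7, and the neuronal lists rise at day 7, where the 3 arrays lie close together.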

How the data were processed

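Total RNA from 18 samples was amplified (NuGEN Ovation) and hybridised to Affymetrix mouse arrays by the authors. The deposited values are log2 signals, made by the authors with GCRMA over all arrays (tools GCRMA and limma per the labels; versions are not given in the sources used here), and were used as deposited. Of 45101 probe sets, 64 controls were left out. Of the remaining 45037, 34945 carry 1 gene symbol, 932 several and 9160 none here; only the first were used for genes. limma 3.58.1 (R 4.3.3; lmFit, eBayes) fitted 6 group means to the 18 arrays (12 residual and 0.515 prior degrees of freedom), a step tested on simulated data. Python 3.11.15, pandas 2.3.3 and matplotlib 3.10.9 made summaries and figures. Promoter windows existed for 14452 genes. The number of arrays limits the precision. The methods call the replicates biological.

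Genes named are the 12 largest rises and falls with groups that do not overlap, up to 4 called members a list in each direction by size, a fixed set of stage markers, the paralog pairs, and uncalled members where 5 or fewer or defining. Others were named after their values were seen. The comparison, the lists and the named genes were chosen with earlier results of these data known, and they do not support those results independently. The alternatives changed the arrays fitted, moderation, weights, dim values, normalization, centring, probe sets, thresholds and single arrays.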

Additional observations from a re-analysis of the deposited data

How the results depend on the processing

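Counts moved most when the 6 arrays of day 4 and day 7 were fitted alone, without the spread of the other stages: 780 genes rose and 512 fell in place of 1977 and 1486, of which 762 and 502 were shared. Members of the 35 lists called higher and lower then numbered 117 and 93 (238 and 187 in the fit to 18 arrays), and 80 of the 160 called named genes stayed called. Besides the lists whose counts in that fit stand with their results, the numbers higher and lower were 1 and 3 for general progenitor genes, 2 and 3 for proneural factors, 1 and 1 for the Notch pathway, 0 and 1 for Hox groups 1 to 6, 10 and 0 for voltage-gated channels, 9 and 1 for ligand-gated subunits, 14 and 0 for guidance and adhesion, 3 and 0 for neurotrophic genes, 2 and 0 for interneuron factors, 2 and 0 for other transmitters, 3 and 5 for G1 regulators, 1 and 1 for cholesterol genes, 2 and 1 for glycolysis, 7 and 0 for RNA-binding factors, 1 and 1 for chromatin regulators, 1 and 1 for FGF, Wnt and BMP feedback, 3 and 1 for motor neuron disease genes, 0 and 1 for crest and sensory markers, and 2 and 0 for fibroblast markers, with none called in the other lists. Requiring 4-fold left 688 falls and 1347 rises, a share of rises of 66.2% against 57.1%. Averaging the probe sets of a gene raised the ratio in 14 pairs in place of 9, and turned the change of Elavl1 from -1.01 to 0.0199. With the background at 3, 351 risen genes were under it at day 4 and 53 fallen genes at day 7, and with it at 5, 182 fallen genes were (562 and 118 at 4). The cause of these shifts was not tested. Centring moved the median of all genes by -0.09 and gave 1810 rises and 1684 falls. Leaving out 1 array in turn gave 1608 to 1873 rises, 1205 to 1438 falls, 208 to 232 list members higher, 170 to 180 lower, 142 to 151 named genes still called and 9 pairs throughout. Among small list counts not given with their results, 2 Hox genes of groups 1 to 6 and 2 guidance genes fell without day 4 replicate 3, no Hox gene of these groups rose without day 7 replicate 3, and 2 stress genes fell without day 7 replicate 5. No paired analysis was possible because the groups share only replicate number 3. The precision is limited by 3 arrays a group and, for signals under 4, by background.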
